A study of Mus musculus with 4 samples.

Results

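The homeobox and paired-box genes Msx1, Msx2, Pax9, Lhx6, Lhx8, Barx1, Dlx1, Dlx2, Dlx5 and Dlx6 encode transcription factors. They are grouped here for their role in the dental mesenchyme. Their rows were found in the deposited table by gene symbol, from a list drawn up with earlier results of these data known, and all 10 were present, each as a single row among 15887 genes. In the developing tooth, signals of the oral epithelium switch on these genes in the mesenchyme below it, and the mesenchyme answers with signals of its own, such as Bmp4, that carry the tooth from the bud to the cap stage. Msx1 and Pax9 are the classical examples, since mice without either gene stop tooth formation at the bud stage. Several of the 10 work as close pairs: Msx1 with Msx2, Lhx6 with Lhx8, Dlx1 with Dlx2 and Dlx5 with Dlx6.

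The genes were measured by CAGE (cap analysis of gene expression), which counts the 5′ ends of capped RNAs, in 4 libraries of tooth germs from ICR mice. Cyclophosphamide (CPA), an alkylating anti-cancer drug, or its solvent DMSO was present for 3 days of organ culture at 37 °C or at 25 °C, which gave the libraries 37°C_DMSO and 37°C_CPA, and 25°C_DMSO and 25°C_CPA. The stage label was E14.5. The series text gives 2.5 mM CPA, whereas the sample records give 0.25 mM, dissection at E13.5 and 4 further days without the drug, so dose, age and later culture are not settled. Each condition was a single library of pooled whole tooth germs, epithelium and surrounding tissue included, so the differences below could not be checked against replicates and carry no p-value. In such bulk RNA, fewer cells of a type and less RNA per cell cannot be told apart.

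The deposited counts summed to between 15101186 and 16449264 per library, a ratio of 1.09, and 3 counts, taken as the limit of detection, stood for 0.182 to 0.199 CPM (counts per 1000000). Levels are given in CPM after TMM scaling, a correction for library composition, and folds are ratios of these levels. A gene counted as measured where the higher of the libraries compared held at least 50 counts, and as called where that library was at least 2-fold above the other. The 95% intervals are exact for the 2 counts of a fold, or for 1 count of a level or a share, and cover counting error only. They narrow as counts rise, so whether an interval excludes 1 depends also on the depth of a gene. Where shares of genes with such intervals are given, the genes were not matched to the members by count. Because CAGE counts transcript starts, the levels of different genes need no correction for length.

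All 10 genes were well above the limit of detection in every library. Msx1 was the most abundant of the 10 in each library, and Dlx6 the least. The count of Msx1 exceeded that of Dlx6 by 10.4 times in 37°C_DMSO and 14.9 times in 37°C_CPA, and 26.1 times in 25°C_DMSO and 29.6 times in 25°C_CPA. Among all genes of a library, Msx1 held rank 1217 in 37°C_DMSO and 1251 in 37°C_CPA, and 762 in 25°C_DMSO and 691 in 25°C_CPA. Between these ends the order differed with temperature. Lhx8 was the 8th of the 10 in 37°C_DMSO and the 4th in 37°C_CPA, but the 2nd in both libraries at 25 °C. Msx2 was the 6th in 37°C_DMSO, the 8th in 37°C_CPA and the 9th in both libraries at 25 °C. Some neighbours in this order were not separated by their counting intervals: Pax9 and Dlx5, Msx2 and Barx1, Barx1 and Lhx8, and Lhx8 and Dlx1 in 37°C_DMSO, each step from the 4th to the 9th gene in 37°C_CPA, Dlx2 and Lhx6 in both libraries at 25 °C, and Barx1 and Pax9 in 25°C_CPA.

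**Figure D1:**
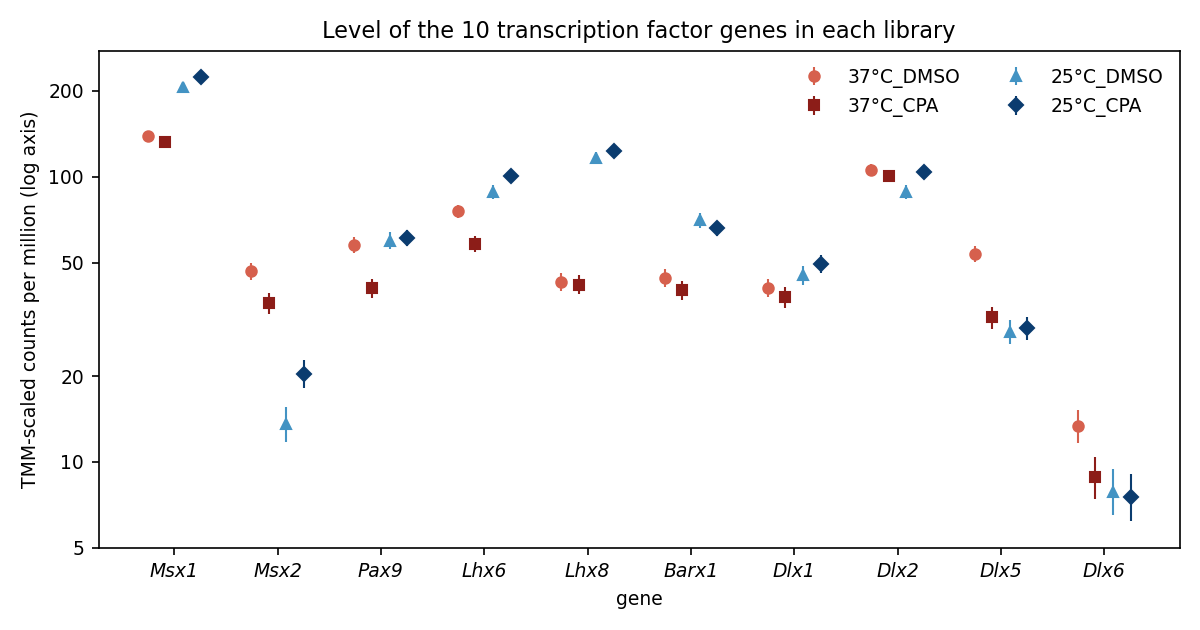
Level of the 10 genes in the 4 libraries, as TMM-scaled CPM on a log axis, with 1 point per library and exact 95% Poisson intervals of the count as bars. The points of Lhx8 at 25 °C lie at 116 and 123 CPM, above both points at 37 °C, and those of Msx2 lie at 13.6 and 20.4, below both points at 37 °C.

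Lhx8 and Msx2 were the members past the 2-fold limit, both with temperature, and Msx1 was the most abundant, so their promoters are printed here. Each runs 5′ to 3′ on the strand of the gene, from 250 bases before to 50 bases after the annotated start, and comes from RefSeq on GRCm38.p6. Capitals mark every match, on either strand, to the homeodomain core TAATTA, the CCAAT box or the GC box GGGCGG, and TATAAA, also searched, had no match in the 3.
Msx1: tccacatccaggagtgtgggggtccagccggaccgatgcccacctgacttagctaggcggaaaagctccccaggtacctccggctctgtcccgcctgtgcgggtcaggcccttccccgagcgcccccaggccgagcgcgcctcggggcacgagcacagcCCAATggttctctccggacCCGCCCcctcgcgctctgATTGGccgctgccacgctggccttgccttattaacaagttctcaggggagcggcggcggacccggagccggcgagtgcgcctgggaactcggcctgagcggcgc
Msx2: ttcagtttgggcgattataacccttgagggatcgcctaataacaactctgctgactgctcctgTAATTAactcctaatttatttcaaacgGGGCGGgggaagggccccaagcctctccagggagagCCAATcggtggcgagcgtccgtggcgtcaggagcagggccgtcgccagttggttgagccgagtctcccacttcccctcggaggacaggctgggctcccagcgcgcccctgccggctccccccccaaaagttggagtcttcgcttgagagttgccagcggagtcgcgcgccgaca
Lhx8: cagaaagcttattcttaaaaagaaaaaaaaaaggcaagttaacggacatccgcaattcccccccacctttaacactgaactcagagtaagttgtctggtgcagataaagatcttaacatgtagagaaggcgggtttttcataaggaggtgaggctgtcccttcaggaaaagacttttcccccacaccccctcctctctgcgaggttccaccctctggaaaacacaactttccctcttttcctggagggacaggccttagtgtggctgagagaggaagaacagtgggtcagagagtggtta
These windows are chr5:37824536-37824835 for Msx1, chr13:53472731-53473030 for Msx2 and chr3:154330511-154330810 for Lhx8, all on the minus strand.

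The promoters of Msx1 and Msx2 carried several of the motifs, while that of Lhx8 carried none of the 4. In Msx1 the CCAAT box was found with its first base at positions -91 and, on the other strand, -54 relative to the start, and the GC box at -72. In Msx2 TAATTA was found at -187, the GC box at -160 and the CCAAT box at -124. Of all 32851 promoters in the table, 5.29% held TAATTA, 13.6% TATAAA, 37.4% CCAAT and 35.7% GGGCGG. Of the 10 genes, 8 had a promoter in the table (Lhx6 with 3 starts), and Dlx5 and Dlx6 had none. Among these 8, TAATTA was found in Msx2 only, TATAAA in Lhx6 only, CCAAT in 4 and GGGCGG in 6. CpG dinucleotides numbered 4 in the Lhx8 window, 22 in Msx2, 29 in Msx1 and 50 in Barx1, against a median of 7 over all promoters. The deposited table sums tags per gene and does not show which start was used, and a match of letters is not evidence of binding.

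Msx1 and Msx2 encode closely related homeodomain proteins that act downstream of Bmp4 in tooth and skull. Msx1 was at 139 CPM in 37°C_DMSO and 132 in 37°C_CPA, and 206 in 25°C_DMSO and 223 in 25°C_CPA. Msx2 was at 46.7 in 37°C_DMSO and 36.0 in 37°C_CPA, and 13.6 in 25°C_DMSO and 20.4 in 25°C_CPA. The paralogs thus lay in opposite order by temperature: both libraries at 25 °C were the high ones for Msx1 and the low ones for Msx2. In 25°C_DMSO Msx2 fell 3.44-fold below 37°C_DMSO (95% interval 2.94 to 4.04), whereas Msx1 stood at a fold of 1.48 (1.40 to 1.56), short of the limit for a call. In 25°C_CPA over 37°C_CPA the fold was 1.69 (1.60 to 1.79) for Msx1 and 0.567 (0.492 to 0.653) for Msx2, neither of them called. With CPA, Msx2 stood at a fold of 0.772 (0.691 to 0.861) at 37 °C and 1.51 (1.26 to 1.81) at 25 °C. The latter was above the folds of 99.2% of the genes measured at 25 °C, although it rests on 198 and 306 counts. For Msx1 the folds with CPA were 0.949 (0.894 to 1.01) at 37 °C and 1.08 (1.03 to 1.14) at 25 °C. The share of Msx1 in the summed counts of both genes, which does not depend on scaling between libraries, was 74.9% (73.3 to 76.4) in 37°C_DMSO and 78.6% (76.9 to 80.1) in 37°C_CPA, and 93.8% (92.9 to 94.6) in 25°C_DMSO and 91.6% (90.7 to 92.5) in 25°C_CPA.

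Lhx6 and Lhx8 encode LIM-homeodomain proteins of the first-arch mesenchyme, which are induced by epithelial Fgf8 and together are needed for molar formation. Lhx6 was at 75.7 CPM in 37°C_DMSO and 58.1 in 37°C_CPA, and 88.3 in 25°C_DMSO and 101 in 25°C_CPA. Lhx8 was at 42.9, 41.8, 116 and 123 in the same order. Lhx8 rose with the low temperature in either medium, by 2.71-fold (2.48 to 2.96) in 25°C_DMSO over 37°C_DMSO and by 2.94-fold (2.68 to 3.21) in 25°C_CPA over 37°C_CPA, 2 comparisons that share no library. It was called in both, as 4.09% of the genes measured in both were called higher in both. Lhx6 was not called, with folds of 1.17 (1.08 to 1.26) and 1.73 (1.60 to 1.88). CPA left Lhx8 at a fold of 0.976 (0.876 to 1.09) at 37 °C and 1.06 (0.990 to 1.13) at 25 °C, intervals that hold 1, and Lhx6 at 0.768 (0.705 to 0.837) and 1.14 (1.06 to 1.23). The larger part of the pair was Lhx6 at 37 °C and Lhx8 at 25 °C. Lhx6 made up 63.8% (61.7 to 65.9) of their counts in 37°C_DMSO and 58.2% (55.7 to 60.6) in 37°C_CPA, and 43.2% (41.4 to 45.0) in 25°C_DMSO and 45.1% (43.4 to 46.8) in 25°C_CPA.

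Pax9, a paired-box factor that is needed for Bmp4 expression in the tooth mesenchyme, had 1 low library. It was at 57.8 CPM in 37°C_DMSO and 40.6 in 37°C_CPA, and 59.8 in 25°C_DMSO and 61.0 in 25°C_CPA. The fold with CPA was 0.703 (0.635 to 0.778) at 37 °C and 1.02 (0.929 to 1.12) at 25 °C, and the fold of 25°C_DMSO over 37°C_DMSO was 1.03 (0.943 to 1.13). None of these reached the limit for a call, nor did the fold of 25°C_CPA over 37°C_CPA at 1.50 (1.36 to 1.66).

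Barx1, a homeobox gene of the molar region of the jaw mesenchyme, had higher levels at 25 °C in either medium. It was at 44.2 CPM in 37°C_DMSO and 40.0 in 37°C_CPA, and 70.4 in 25°C_DMSO and 66.0 in 25°C_CPA. Both libraries at 25 °C were above both at 37 °C, with folds of 1.59 (1.45 to 1.75) in DMSO and 1.65 (1.49 to 1.83) in CPA, below the limit for a call. With CPA the folds were 0.905 (0.812 to 1.01) at 37 °C and 0.937 (0.857 to 1.02) at 25 °C, and both intervals hold 1.

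The Dlx genes lie in convergently transcribed pairs that share enhancers. In GENCODE vM1 on mm9, the build to which the tags were aligned, Dlx1 spans chr2:71366170-71372038 on the plus strand and Dlx2 chr2:71381466-71384811 on the minus strand, with 9427 bases between them. Dlx6 spans chr6:6813334-6818568 on the plus strand and Dlx5 chr6:6827805-6832085 on the minus strand, 9236 bases apart. The 2 pairs differed in the libraries.

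Dlx1 and Dlx2, which are needed together for the upper molars, stayed within 2-fold in each comparison. The paper's methods name mandibular molars as the source of the tooth germs. Dlx1 was at 40.8 CPM in 37°C_DMSO and 37.7 in 37°C_CPA, and 45.2 in 25°C_DMSO and 49.6 in 25°C_CPA. Dlx2 was at 105, 100, 88.4 and 104 in the same order. No comparison brought either of them to a call, and the folds of the pair lay between 0.838 (0.780 to 0.901) for Dlx2 in 25°C_DMSO over 37°C_DMSO and 1.32 (1.18 to 1.47) for Dlx1 in 25°C_CPA over 37°C_CPA. With CPA, Dlx1 stood at 0.926 (0.828 to 1.04) at 37 °C and 1.10 (0.986 to 1.22) at 25 °C, and Dlx2 at 0.952 (0.889 to 1.02) and 1.18 (1.10 to 1.27). Dlx1as, a transcript of the opposite strand that spans Dlx1, had 1337 counts in 37°C_DMSO and 1260 in 37°C_CPA, and 1070 in 25°C_DMSO and 1716 in 25°C_CPA, more than Dlx1 in each library. Its fold with CPA was 1.56 (1.45 to 1.69) at 25 °C and 1.02 (0.944 to 1.10) at 37 °C, below a call in both. The row names carry the strand, but whether tags were summed by strand is not given in the sources used here.

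Dlx5 and Dlx6, which pattern the lower jaw, were highest in 37°C_DMSO and lower in all the other libraries. Dlx5 was at 53.8 CPM in 37°C_DMSO and 32.1 in 37°C_CPA, and 28.6 in 25°C_DMSO and 29.4 in 25°C_CPA. Dlx6 was at 13.3, 8.83, 7.87 and 7.54 in the same order. At 37 °C the folds with CPA were 0.597 (0.534 to 0.666) for Dlx5, the lowest of the 10, and 0.661 (0.531 to 0.821) for Dlx6. The folds of 25°C_DMSO over 37°C_DMSO were 0.532 (0.473 to 0.598) and 0.590 (0.467 to 0.741). These were short of a call, that of Dlx5 by a small margin, and both comparisons share the 37°C_DMSO library in which the pair was high. At 25 °C the folds with CPA were 1.03 (0.897 to 1.18) for Dlx5 and 0.957 (0.732 to 1.25) for Dlx6. Between the CPA libraries, 25°C_CPA over 37°C_CPA, they were 0.916 (0.804 to 1.04) and 0.854 (0.660 to 1.10). All 4 of these intervals hold 1.

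Within the Dlx family the pairs kept or lost their proportions differently. The share of Dlx6 in the counts of Dlx5 and Dlx6 was 19.9% (17.6 to 22.3) in 37°C_DMSO and 21.6% (18.4 to 25.0) in 37°C_CPA, and 21.6% (18.2 to 25.3) in 25°C_DMSO and 20.4% (17.1 to 24.0) in 25°C_CPA, and these intervals all overlap. The share of Dlx1 in the counts of Dlx1 and Dlx2 was 27.9% (26.1 to 29.7) in 37°C_DMSO and 27.3% (25.4 to 29.2) in 37°C_CPA, below the 33.8% (31.7 to 36.0) in 25°C_DMSO and the 32.2% (30.3 to 34.2) in 25°C_CPA. Dlx1 and Dlx2 together held 68.5% (67.0 to 70.0) of the counts of the 4 genes in 37°C_DMSO and 77.1% (75.5 to 78.7) in 37°C_CPA, and 78.6% (76.9 to 80.2) in 25°C_DMSO and 80.6% (79.1 to 82.1) in 25°C_CPA. The 37°C_DMSO library was thus set apart by its larger part of Dlx5 and Dlx6.

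**Figure D2:**
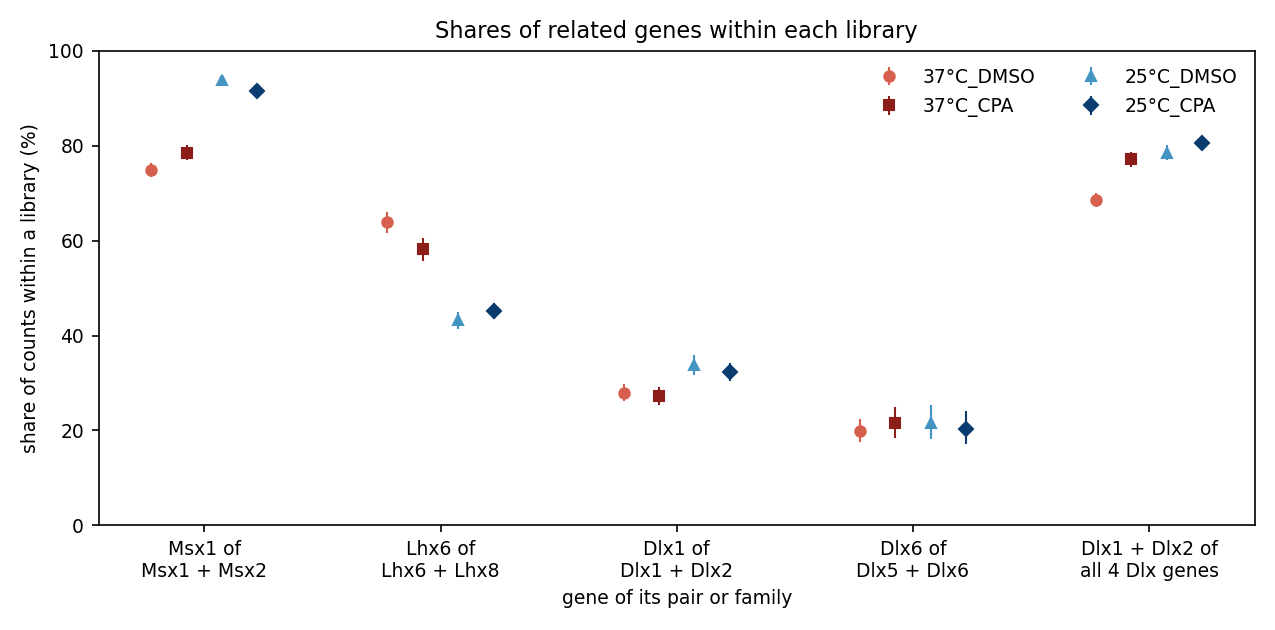
Share of a gene or gene pair in the summed counts of its pair or family within each library, in percent, with exact binomial 95% intervals as bars. The shares of Msx1, of Lhx6 and of Dlx1 separate by temperature, at 74.9% and 78.6% against 93.8% and 91.6% for Msx1, whereas those of Dlx6 lie between 19.9% and 21.6% with overlapping intervals.

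Dlx3, a relative outside the 10 known from placenta, hair and enamel, and its neighbour Dlx4 were also highest in 37°C_DMSO. Dlx3 had 1435 counts in 37°C_DMSO and 932 in 37°C_CPA, and 428 in 25°C_DMSO and 571 in 25°C_CPA, and fell 2.89-fold (2.59 to 3.23) in 25°C_DMSO over 37°C_DMSO. Dlx4 had 82, 35, 15 and 29 counts in the same order, and its log2 folds were -1.11 in 37°C_CPA and -2.24 in 25°C_DMSO, both over 37°C_DMSO and both past the limit for a call. Barx2, the relative of Barx1, had 574, 376, 410 and 309 counts and no call.

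The comparison of 37°C_CPA with 37°C_DMSO asks what the drug does at body temperature. None of the 10 genes was called in either direction, where 2.40% of the 13307 measured genes were called higher and 1.59% lower. All 10 had a log2 fold below 0, against 52.7% of measured genes, with 7 of the signs turned by a scaling that shifts every gene alike. The median of the 10 was -0.26 against -0.02 over all measured genes. The interval lay below 1 for 5 of the 10 (Msx2, Pax9, Lhx6, Dlx5 and Dlx6), against 27.7% of measured genes, and above 1 for none, against 24.5%. Relative to the geometric mean of a list of 10 general mesenchyme genes, whose own median log2 fold was -0.39, Msx1, Msx2, Lhx6, Lhx8, Barx1, Dlx1 and Dlx2 turned positive (Lhx8 also relative to Gapdh), and Pax9, Dlx5 and Dlx6 stayed negative. On that scale the median was 0.22 for the 10 and 0.45 for all measured genes. Such a scaling shifts every log2 fold by the same amount, so it cannot alter the distance between these medians.

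The comparison of 25°C_CPA with 25°C_DMSO puts the same question at the low temperature. No member was called here either, where 0.142% of 12704 measured genes were called higher and 0.118% lower. The median log2 fold of the 10 was 0.10 against 0.00 over all measured genes. The interval lay above 1 for 4 of the 10 (Msx1, Msx2, Lhx6 and Dlx2), against 9.44% of measured genes, and below 1 for none, against 10.4%.

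The CPA folds at the 2 temperatures come from separate libraries and can be set side by side. The fold at 25 °C was above the fold at 37 °C for all 10 genes, against 51.7% of the 12328 genes measured at both temperatures. The interval of the ratio of folds, from the 4 counts, lay above 1 for 8 of the 10, against 22.1% of those genes, and below 1 for none, against 21.2%. The CPA fold was below 1 at 37 °C and above 1 at 25 °C for 8 of the 10, against 25.7% of those genes, and Barx1 and Dlx6 were below 1 at both. The ratio was largest for Msx2 at 1.95 (1.58 to 2.40), followed by Dlx5 at 1.72 (1.45 to 2.05). Lhx6 had a ratio of 1.49 (1.33 to 1.66), Pax9 of 1.45 (1.27 to 1.66) and Dlx6 of 1.45 (1.04 to 2.02). Lhx8 at 1.08 (0.957 to 1.23) and Barx1 at 1.04 (0.902 to 1.19) were the members whose interval held 1. The median log2 ratio was 0.42 for the 10 and 0.01 for all genes measured at both. Median log2 folds with CPA at 37 °C and 25 °C were -0.39 and 0.01 for the general mesenchyme genes. They were -0.48 and -0.05 for other transcription factors of the jaw mesenchyme, and -0.03 and -0.02 for epithelial markers. A lower median with CPA at 37 °C than at 25 °C was thus not particular to the 10. Relative to the geometric mean of the general mesenchyme genes, which shifts every gene alike, the ratio was above 1 for 5 of the 10 (Msx2, Pax9, Lhx6, Dlx5 and Dlx6) and for 9.26% of all genes measured at both. On that scale the interval lay above 1 for 2 of the 10 (Msx2 and Dlx5) and below 1 for 5. Shares of all genes with such intervals were not computed on that scale. The median log2 ratio was then -0.061 for the 10 and -0.47 for all genes, and their difference of 0.41 is fixed by arithmetic on either scale. Under the other 6 alternatives tried, the ratio was above 1 for all 10. With a single library per condition this difference could not be tested.

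**Figure D3:**
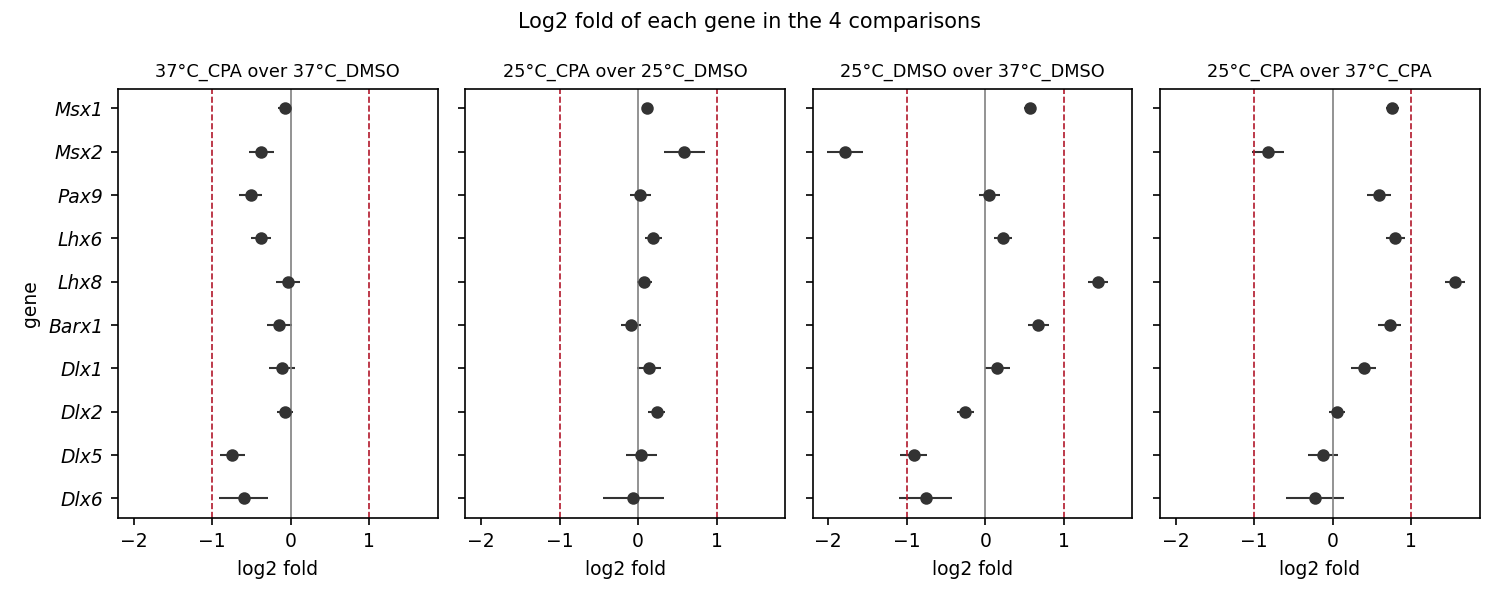
Log2 fold of each of the 10 genes in the 4 comparisons, with 95% counting intervals as bars, a grey line at no change and dashed lines at the 2-fold limits. The points past a dashed line are Lhx8 in both temperature comparisons, at 1.44 and 1.55, and Msx2 in 25°C_DMSO over 37°C_DMSO, at -1.78.

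The comparisons of 25 °C with 37 °C ask what the low temperature does without and with the drug. In 25°C_DMSO over 37°C_DMSO, 1 of the 10 genes was called higher (Lhx8) and 1 lower (Msx2), where 6.45% of 13491 measured genes were called higher and 11.5% lower. The interval lay above 1 for 4 of the 10 and below 1 for 4, against 36.3% and 37.7% of measured genes. The median log2 fold was 0.10, against -0.01 over all measured genes. In 25°C_CPA over 37°C_CPA, Lhx8 was again the only gene of the 10 called higher, and none was called lower, where 6.32% and 10.9% of 13343 measured genes were called. There the interval lay above 1 for 6 of the 10 and below 1 for Msx2 only, against 36.3% and 36.6% of measured genes. The median was 0.49 against 0.00 over all measured genes. The direction was the same in both comparisons for 9 of the 10 genes, against 81.8% of all genes measured in both, and Dlx2, at log2 folds of -0.25 and 0.06, was the exception. The signs of Pax9, Dlx1 and Dlx2 in DMSO, and of Dlx2, Dlx5 and Dlx6 in CPA, turned under at least 1 other scaling, each of which shifts all genes alike, and those of Msx1, Msx2, Lhx6, Lhx8 and Barx1 did not.

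Summed over the 10 genes, the level was 620 CPM in 37°C_DMSO and 528 in 37°C_CPA, and 724 in 25°C_DMSO and 785 in 25°C_CPA. The sum was lowest in 37°C_CPA and highest in 25°C_CPA. Of this sum Msx1 held 22.4% in 37°C_DMSO and 28.4% in each library at 25 °C, Lhx8 6.92% in 37°C_DMSO and 15.6% in 25°C_CPA, and Msx2 7.53% and 2.60% in the same libraries.

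**Figure D4:**
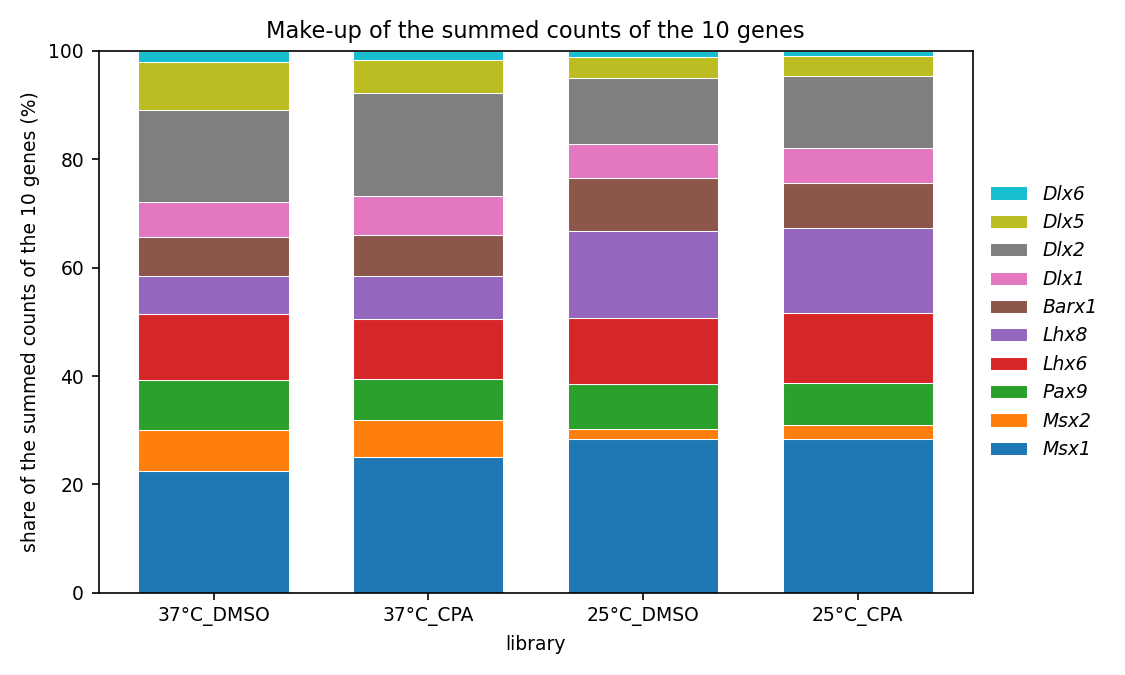
Share of each of the 10 genes in their summed counts, in percent, in the 4 libraries. The segment of Lhx8 is wider in both libraries at 25 °C, and those of Msx2 and Dlx5 are narrower, than in 37°C_DMSO.

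The tooth germs held cells other than dental mesenchyme, and the markers of several of them differed between the libraries. The 10 general mesenchyme genes, among them Vim, Pdgfra and Twist1, summed to 1203 CPM in 37°C_DMSO and 908 in 37°C_CPA, and 1003 in 25°C_DMSO and 984 in 25°C_CPA. Per 100 counts of these genes there were 51.5, 58.1, 72.2 and 79.8 counts of the 10 transcription factor genes, so their sum stood higher at 25 °C on this scale also. The lowest library on this scale was 37°C_DMSO and not 37°C_CPA. The 12 epithelial markers, such as Krt14, Epcam and Trp63, summed to 2738 CPM in 37°C_DMSO and 3118 in 37°C_CPA, and 2172 in 25°C_DMSO and 2309 in 25°C_CPA. The sum was lower in both libraries at 25 °C than in both at 37 °C. Per 100 counts of these markers there were 22.6, 16.9, 33.3 and 34.0 counts of the 10 transcription factor genes in the same order, lowest in 37°C_CPA. Single markers differed: in 37°C_CPA over 37°C_DMSO the interval lay above 1 for 4 of the 12 and below 1 for 4. Trp63 fell there, at a log2 fold of -0.73. The 10 bone genes, such as Sp7, Ibsp and Col1a1, summed to 3704, 1937, 696 and 722 CPM, and the 10 macrophage genes to 746, 585, 179 and 191. In 25°C_CPA over 37°C_CPA, 2 of 7 measured bone genes were called higher and 3 lower. Of 10 macrophage genes, 1 was called higher there and 3 lower. The sums of both lists, like the levels of Msx2, Dlx5 and Dlx6, were highest in 37°C_DMSO and low at 25 °C. The 4 erythroid genes in the table went the other way, with 9.33 CPM in 37°C_DMSO and 15.7 in 37°C_CPA, and 123 in 25°C_DMSO and 97.4 in 25°C_CPA, and all 4 were called higher in both temperature comparisons, as Lhx8 was. Skeletal muscle genes summed to 92.6 CPM in 37°C_DMSO and 34.3 in 37°C_CPA, and 43.9 in 25°C_DMSO and 55.8 in 25°C_CPA. Endothelial genes summed to between 62.0 and 135 CPM, and nerve and Schwann cell genes to between 18.8 and 33.3. None of the markers found in the table was at or under 3 counts in any library. The part of these cells in the values of the 10 genes was not tested.

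Other transcription factors of the jaw mesenchyme, from a list of 26 of which 20 were measured, gave a median log2 fold of -0.48 in 37°C_CPA over 37°C_DMSO, where 1 was called lower (Mef2c, at -1.37) and none higher. In 25°C_CPA over 25°C_DMSO none was called and the median was -0.05. In 25°C_DMSO over 37°C_DMSO 1 was called higher and 4 lower, with a median of -0.34. The gene called higher was Osr2, which restricts tooth formation to a single row in mice. The genes called lower were Lef1, the nuclear partner of Wnt signalling, at -1.12, Prrx2 at -1.19, Foxf2 at -1.77 and Sox9, the cartilage regulator, at -1.52. Osr2 had 790 counts in 37°C_DMSO and 505 in 37°C_CPA, and 1808 in 25°C_DMSO and 1754 in 25°C_CPA, high at 25 °C like Lhx8, with log2 folds of 1.41 in DMSO and 1.86 in CPA. In 25°C_CPA over 37°C_CPA Osr2 was called higher and Foxf2 and Sox9 lower, and the median was 0.14. Per 100 counts of the whole list, the 10 genes had 39.0 counts in 37°C_DMSO and 43.2 in 37°C_CPA, and 52.8 in 25°C_DMSO and 59.3 in 25°C_CPA.

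Of 9 measured signals of the dental epithelium, Eda was called higher in 25°C_DMSO over 37°C_DMSO, at a log2 fold of 1.04. Fgf4 at -1.47, Wnt10a at -1.44 and Shh, a signal of the enamel knot, at -2.82 were called lower there. With CPA in both libraries (25°C_CPA over 37°C_CPA), Eda at 1.33 and Wnt10b at 1.04 were called higher, and Fgf4 at -1.37 and Shh at -2.09 lower. None of the 9 was called in 37°C_CPA over 37°C_DMSO, and none of the 8 measured in 25°C_CPA over 25°C_DMSO.

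Of 13 signals and targets of the mesenchyme, Osr2 included, the 37°C_CPA library had 1 called lower, the matrix gene Tnc at -1.01, with a median of -0.32. In 25°C_DMSO over 37°C_DMSO, Osr2 was called higher, and Fgf3 at -2.59, Inhba at -1.51, Lef1 at -1.12 and Tnc at -2.17 lower, with a median of -0.51. In 25°C_CPA over 37°C_CPA, Osr2 was called higher, and Fgf3 at -1.58, Inhba at -1.38 and Tnc at -1.35 lower, with a median of -0.16. Bmp4, which Msx1 and Pax9 maintain in the tooth mesenchyme, had 974 counts in 37°C_DMSO and 665 in 37°C_CPA, and 705 in 25°C_DMSO and 754 in 25°C_CPA. Its folds, 0.739 with CPA at 37 °C, 1.04 with CPA at 25 °C, 0.839 with the low temperature in DMSO and 1.18 with the low temperature in CPA, were not called.

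The genes with a pattern most like each member were sought among 9447 genes with at least 200 counts in their highest library, by the Euclidean distance over the log2 folds of the other 3 libraries against 37°C_DMSO. The pattern of Msx2 was the rarest, with 3 genes within a distance of 0.2, the nearest of them Casz1 at 0.153 and Mr1 at 0.174. Lhx8 had 9 such genes, led by the metallothionein gene Mt1 at 0.0402 and the netrin receptor gene Unc5d at 0.100. Dlx5 had 21, led by Trp63, a master regulator of stratified epithelium, at 0.0439 and Sertad3 at 0.0834. Trp63 had 2993 counts in 37°C_DMSO and 1664 in 37°C_CPA, and 1366 in 25°C_DMSO and 1408 in 25°C_CPA. The patterns of the other members were commoner, with 60 genes within that distance for Dlx6, 84 for Lhx6, 85 for Pax9, 181 for Barx1, 255 for Msx1, 322 for Dlx2 and 530 for Dlx1. Leaving out Msx1, the genes nearest to these were Lratd1 and St3gal1 for Dlx6, Atxn7l2 and Casd1 for Lhx6, Rxrb and Nynrin for Pax9, Nudt18 and Exosc1 for Barx1, Rhbdf1 and Rai14 for Dlx2 and Rfxap and Tax1bp1 for Dlx1. Among the members themselves, Msx1 and Barx1 lay closest to each other, at 0.164, followed by Dlx5 and Dlx6 at 0.215. The nearest member to Msx2 was not Msx1 but Dlx5, at 1.00.

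On mm9 the other members lie at chr5:38211724-38215822 on the minus strand (Msx1, 2 exons), chr13:53562250-53568443 on the minus strand (Msx2, 2 exons), chr12:57792754-57813809 on the plus strand (Pax9), chr2:35937470-35960928 on the minus strand (Lhx6), chr3:153969260-153993615 on the minus strand (Lhx8, matched by symbol and not by identifier) and chr13:48758367-48761876 on the plus strand (Barx1). Msx2 and Barx1 thus share chromosome 13, and Lhx6, Dlx1 and Dlx2 share chromosome 2. None of the 10 genes had counts identical to those of another gene in all 4 libraries.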

How the data were processed

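The authors isolated total RNA, and the CAGE tags were aligned to mm9 and turned into start sites by SAMtools within MOIRAI. BWA 0.5.9 and the builds mm9 and GRCh38 stand in the submitters' processing notes with no role given. How tags were summed per gene, and by which annotation, is not given in the sources used here. Deposited by the authors were raw counts per gene, with no normalization, in 4 columns, 1 per condition.

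From the deposited counts, TMM factors over the 4 libraries were computed with edgeR 4.0.16 in R 4.3.3 (1.03 in 37°C_DMSO and 1.02 in 37°C_CPA, and 0.967 in 25°C_DMSO and 0.980 in 25°C_CPA). Folds, exact binomial and Poisson 95% intervals and shares were computed in Python 3.11.15 with SciPy 1.17.1, pandas 2.3.3 and numpy 2.4.6 and drawn with matplotlib 3.10.9. The interval of a ratio of folds is a Wald interval from 4 counts. Molecules were not told apart by identifiers. The calculations were tested on simulated data. For symbols on more than 1 row, the row of largest sum was taken.

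The members and the gene lists were chosen with earlier results of these data known. Genes were named from the 10 members, the genes of the related lists past the fold of 2 with the highest and lowest of each list, up to 3 markers of each cell type, Gapdh, and the 2 genes most like each member, without Riken clones, microRNA genes and predicted genes. Bmp4, as a known target, and Barx2, as a relative of Barx1, were named outside this rule, after their values were seen. The alternatives were no scaling, the total count, DESeq2 1.42.0 size factors, Gapdh, the geometric mean of the general mesenchyme list, no minimum count or one of 200, an addition of 10 counts to each library, libraries thinned to the shallowest total, rows of 1 symbol summed, and a call whose interval lies beyond 2-fold. The alternatives for the ratio of CPA folds were chosen after seeing the data. The genes most like Msx1 are not reported here.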

Additional observations from a re-analysis of the deposited data

Results flagged for a closer look

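Msx2 and Lhx6 went in opposite directions with CPA at the 2 temperatures, with intervals that exclude no change at both. The share of all genes that meet this rule was not computed. By sign alone, 25.7% of genes measured at both temperatures were lower with CPA at 37 °C and higher at 25 °C. The log2 fold of Msx2 was -0.37 at 37 °C and 0.59 at 25 °C. That of Lhx6 was -0.38 at 37 °C and 0.19 at 25 °C. Each condition has 1 library, so the difference was not tested between replicates, and both genes were short of a 2-fold call at either temperature. Relative to the general mesenchyme list, which raised every gene at 37 °C alike, the log2 folds there were 0.10 for Msx2 and 0.095 for Lhx6, against a median of 0.45 over all measured genes.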

How the results depend on the processing

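Of the 11 alternatives, 4 concern the calls or symbols on several rows and cannot alter the fold of a member. Under the other 7, 280 log2 folds of single members were recomputed, of which 220 stayed within the counting interval of the value above and 60 moved out of it, and 25 of 40 member results kept one sign throughout. The matching shares over all genes were not computed. The directions of Lhx8 and Msx2 with temperature held under these 7. In 25°C_DMSO over 37°C_DMSO the members called lower numbered 2, with Dlx5 added, without scaling and with the total count, and those called higher numbered 2, with Barx1 added, with Gapdh and with the general mesenchyme list. Of all 13491 measured genes, 2124 were called lower without scaling and 1789 with the total count. Those called higher numbered 2399 with Gapdh and 2385 with the general mesenchyme list. The median of the 10 there was -0.11 without scaling, 0.53 with Gapdh and 0.52 with the mesenchyme list. With Gapdh, which had between 117 and 215 counts, the members called higher in 25°C_CPA over 37°C_CPA numbered 6 with a median of 1.15. There 3733 of all 13343 measured genes were called higher. With Gapdh the median of the 10 in 25°C_CPA over 25°C_DMSO was 0.37. The fold of Gapdh itself in that comparison was 0.826 (0.640 to 1.06), an interval that holds 1. With the mesenchyme list the median in 37°C_CPA over 37°C_DMSO was 0.22. The ratio of CPA folds, with alternatives chosen after seeing the data, had a median log2 of 0.66 with Gapdh and -0.061 with the mesenchyme list. The median of all genes was 0.25 with Gapdh and -0.47 with the list. With the list 5 members were above 1, against 9.26% of all genes. The interval there lay above 1 for 2 members and below 1 for 5, and the matching shares over all genes were not computed. These scalings moved the median of all measured genes, by -0.11 (37°C_CPA over 37°C_DMSO) and -0.21 (25°C_DMSO over 37°C_DMSO) without scaling, by 0.28 (25°C_CPA over 25°C_DMSO), 0.43 (25°C_DMSO over 37°C_DMSO) and 0.66 (25°C_CPA over 37°C_CPA) with Gapdh, and by 0.47 (37°C_CPA over 37°C_DMSO) and 0.42 (25°C_DMSO over 37°C_DMSO) with the mesenchyme list, so the members moved with all genes. In 25°C_DMSO over 37°C_DMSO genes called higher made up 35.9% of all calls, but 20.7% without scaling, 72.2% with Gapdh and 72.1% with the mesenchyme list. In 37°C_CPA over 37°C_DMSO they made up 60.2%, but 43.2% without scaling and 95.4% with the mesenchyme list. With Gapdh they made up 89.7% in 25°C_CPA over 25°C_DMSO, against 54.5%, and 85.5% in 25°C_CPA over 37°C_CPA, against 36.7%. No paired analysis was possible because each condition has 1 library, and for the same reason no replicate could be left out. Dlx6, at 113 to 226 counts, had the widest intervals.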
